A study of Mus musculus with 6 samples.

Results

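The genes of class I antigen presentation and of the interferon response were followed in mouse liver as a list of 29 genes, chosen by name and not by their values. Transcripts were read by probe sets, groups of oligonucleotides on the array that detect 1 transcript. Every probe set whose single gene symbol in the platform's gene table is 1 of these genes was taken, which gave 33 of the 12488 probe sets on the array, for 24 of the 29 genes. H2-Q7, H2-T23, Stat2, Oas1a and Bst2 had no single-gene probe set in that table, and H2-Q7 and H2-T23 were listed only on probe sets that name several genes, which were not used. Liver RNA was measured on 3 Affymetrix arrays from C57BL/6 mice that had received a high-fat Western-style diet for 12 weeks and on 3 arrays from C57BL/6 mice that had received a low-fat diet for as long. Where a gene has several probe sets they are lettered a, b and c from the brightest to the dimmest, and intensities are given in the order of arrays 1, 2 and 3 of a diet. The label keywords also mention LDL receptor deficiency and atherosclerosis, but no array is labelled with a genotype beyond the C57BL/6 strain, and age, sex and housing are not given. The labels do not say whether the 3 replicates of a diet are single mice or pools, so p-values measure the spread between these arrays, which may be technical.

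Class I molecules carry peptides of the cell's own proteins to its surface, where cytotoxic T cells read them. A heavy chain pairs with beta-2 microglobulin, the peptide is cut by the proteasome, and the TAP transporter moves it into the endoplasmic reticulum, where tapasin helps to load it. Interferons raise most steps of this path through STAT and IRF transcription factors, together with antiviral proteins, guanylate-binding and immunity-related GTPases and chemokines that draw T cells. In liver both hepatocytes and the resident macrophages, the Kupffer cells, respond to interferons.

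The promoters of several of these genes carry the DNA motifs through which interferon signals act, and the stretches below show them for genes whose values are described here. RefSeq promoter windows of assembly GRCm38.p6, running from 250 bases before to 50 after each gene's first base, were searched on both strands for the core of the interferon-stimulated response element, spelled GAAA, any 2 bases, GAAA, and for the gamma-activated site, spelled TTC, any 3 bases, GAA. Of the 29 genes, 25 were in the promoter table, with 29 windows. The first motif lay in 13 of these windows (44.8%), in 13 genes, against 3.44% of all 32851 windows. The second lay in 6 windows (20.7%), against 8.30% of all windows. Overlapping matches of 1 motif, as in Isg15 and Irgm1, count once per window, and in Bst2 the 2 motifs overlap. Capitals mark the matches, each stretch reads 5′ to 3′ on the strand of its gene, and a match on the opposite strand appears as TTTC, 2 bases, TTTC.
B2m: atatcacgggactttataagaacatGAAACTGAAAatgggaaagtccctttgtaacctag
Isg15: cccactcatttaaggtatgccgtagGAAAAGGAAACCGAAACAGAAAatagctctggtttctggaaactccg
Ifit1: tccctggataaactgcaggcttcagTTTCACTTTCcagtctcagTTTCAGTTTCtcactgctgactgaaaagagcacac
Gbp2: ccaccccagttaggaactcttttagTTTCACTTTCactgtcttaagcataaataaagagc
Igtp: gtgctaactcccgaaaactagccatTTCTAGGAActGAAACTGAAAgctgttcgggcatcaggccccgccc
Irgm1: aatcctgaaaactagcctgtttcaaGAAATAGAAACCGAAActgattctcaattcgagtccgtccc
Irf1: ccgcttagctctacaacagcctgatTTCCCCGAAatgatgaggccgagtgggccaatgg
Psmb8: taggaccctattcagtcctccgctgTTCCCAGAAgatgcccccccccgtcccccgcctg

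The B2m stretch lies at chr2:122147523-122147582 (plus strand), that of Isg15 at chr4:156200850-156200921 (minus), that of Ifit1 at chr19:34640760-34640838 (plus) and that of Gbp2 at chr3:142620579-142620638 (plus). The stretch of Igtp lies at chr11:58199486-58199556 (plus), that of Irgm1 at chr11:48871410-48871475 (minus), that of Irf1 at chr11:53769899-53769957 (plus) and that of Psmb8 at chr17:34198073-34198131 (plus). Isg15 held 3 overlapping copies of the response element core between 78 and 57 bases before its first base, and Ifit1 held 2 separate copies. Igtp held both motifs within its last 45 bases before the start. Irf1 and Psmb8 held the gamma-activated site only, and no match of either motif was found in the windows of H2-K1, H2-D1, Tapbp, Psmb10, Irf7 and Cxcl9. Tap1 and Psmb9 are divergent neighbours whose first bases lie 225 bases apart, and their 2 windows share 275 bases, shown here because the transcripts of both genes are compared below. The shared stretch, at chr17:34187306-34187580 on the plus strand, is 60.7% G or C and holds neither motif, which says only that these letters are not in it.
Tap1 and Psmb9 shared: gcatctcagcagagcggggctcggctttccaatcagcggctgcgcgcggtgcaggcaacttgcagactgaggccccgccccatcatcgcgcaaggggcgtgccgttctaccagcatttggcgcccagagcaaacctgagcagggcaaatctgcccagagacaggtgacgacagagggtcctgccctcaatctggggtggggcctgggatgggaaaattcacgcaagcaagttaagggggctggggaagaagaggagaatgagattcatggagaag

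**Figure D1:**
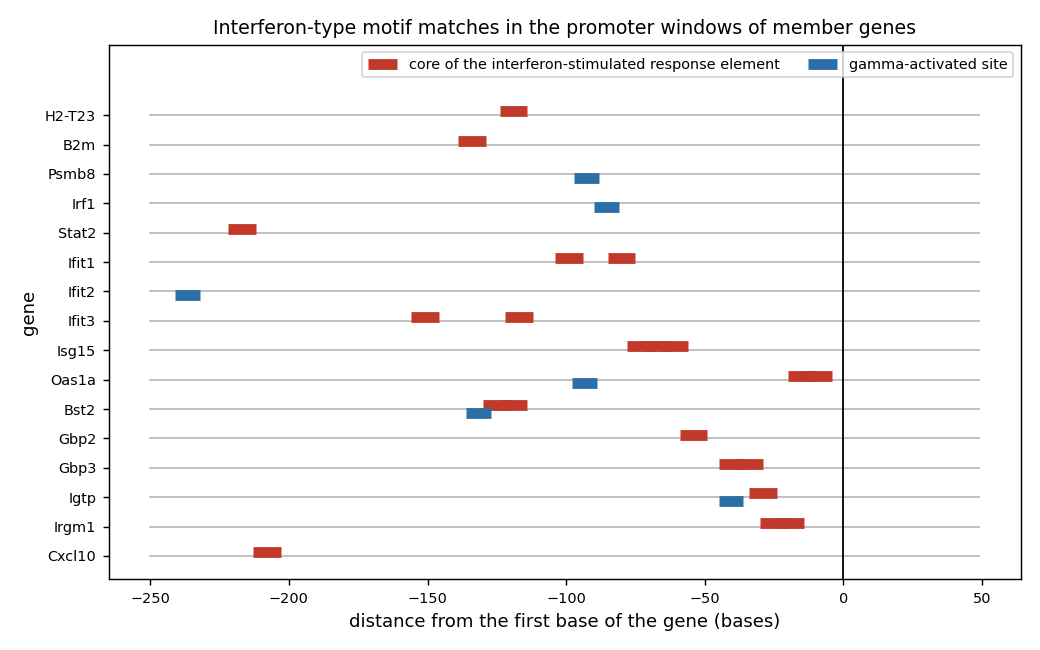
Matches of the interferon-stimulated response element core (red) and of the gamma-activated site (blue) in the promoter windows of the 16 genes with a match, by distance in bases from the first base of the gene (vertical line at 0). Isg15, Gbp2, Gbp3, Igtp, Irgm1, Irf1, Psmb8 and Oas1a have their matches within the last 98 bases before the start, and those of Cxcl10, Stat2 and Ifit2 lie more than 200 bases before it.

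The class I and interferon-response transcripts did not differ detectably between the diets as measured here. Of the 33 probe sets, 30 were bright enough to test, for 21 genes: at least 3 of the 6 arrays lay above a floor intensity of 68.9, the 30th percentile of all values. None of the 30 passed an adjusted p of 0.05 in limma (0 of 30), where 0.827% of all 8950 tested probe sets did. At an unadjusted p under 0.05 there was 1 of the 30, against 9.07% of all tested probe sets. The median log2 difference, high-fat minus low-fat diet, was 0.02 over the 30 probe sets and 0.00 over all tested probe sets, with 17 of the 30 above 0 and 13 below. Adjusted p-values of the 30 ran from 0.512 to 0.999. The 95% confidence interval of the difference lay within a 2-fold change either way for 25 of the 30 probe sets and within a 1.5-fold change for 11, where each interval is for 1 probe set and is not widened for their number. In bulk liver RNA, fewer cells of a type and less RNA per cell cannot be told apart.

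**Figure D2:**
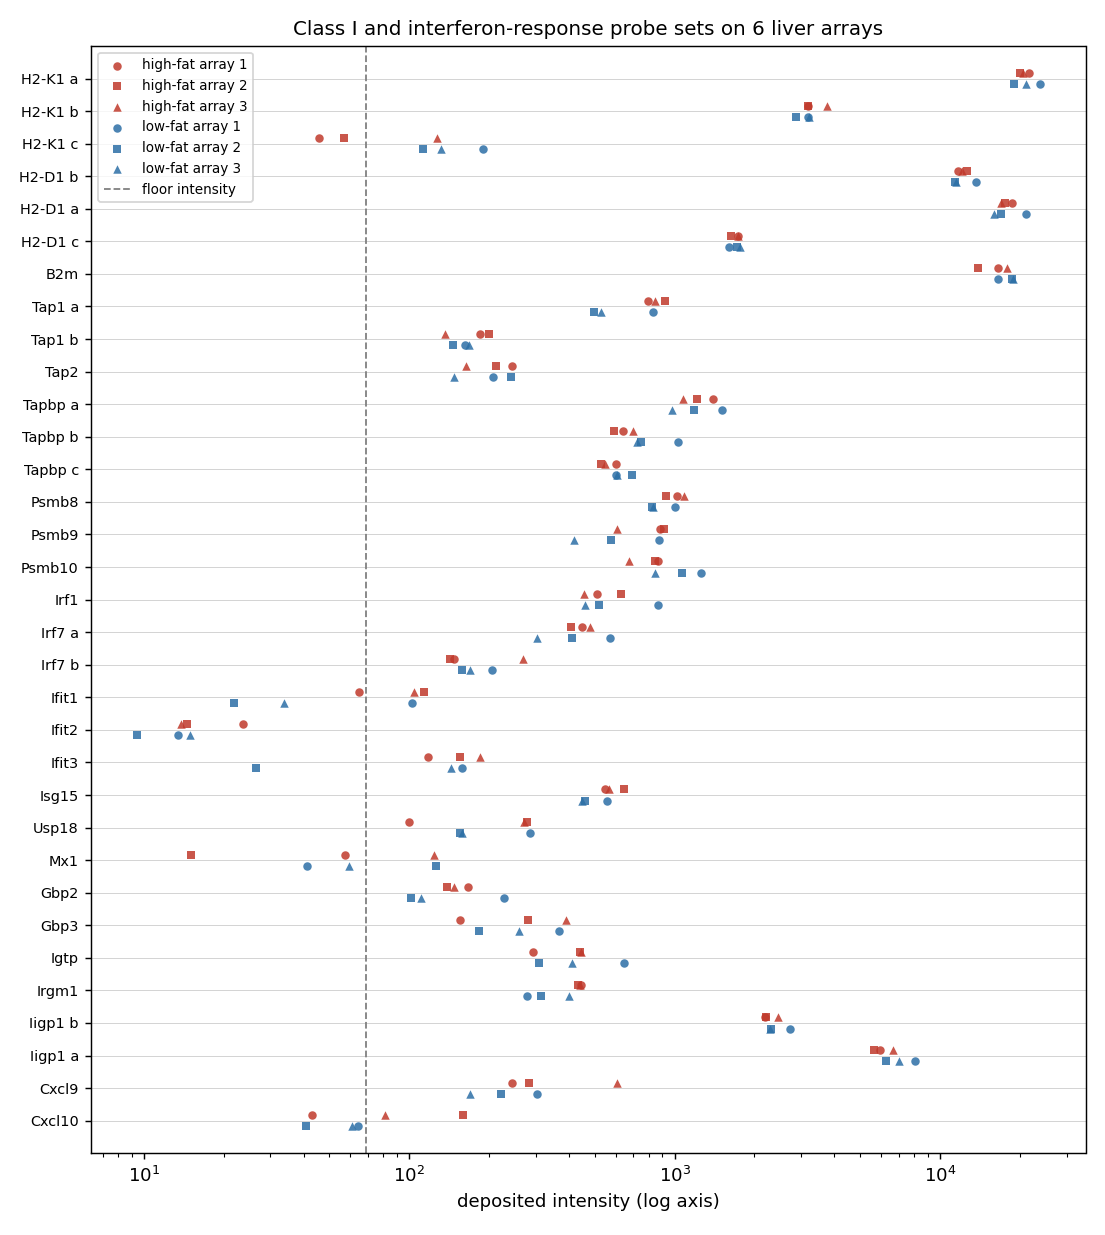
Deposited intensity (log axis) of all 33 probe sets on each array, with the high-fat arrays in red above the low-fat arrays in blue and the floor intensity of 68.9 as a dashed line. The diets overlap in every row except Tapbp b, Tapbp c and Irgm1, and Ifit2 lies wholly below the floor.

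Albumin, a hepatocyte product, had an intensity between 38398 and 49245 on the high-fat arrays and between 34920 and 46802 on the low-fat arrays. Of 7 tested hepatocyte markers 0 passed, against 0.827% of all tested probe sets, with a median log2 difference of 0.05. An unadjusted limma p under 0.05 was reached by 1 of the 7, against 9.07% of all tested probe sets. That gene was Tat, an enzyme of tyrosine breakdown, at 13797, 9815 and 10582 in high-fat livers and 18010, 19399.7 and 21258 in low-fat livers, with a log2 difference of -0.79 ± 0.16 (SE) and an adjusted p of 0.0742. The diets did not overlap for Tat. Of the T cell markers, Cd3e, Cd3d, Cd8a, Cd8b1, Cd5 and Cd2 were too dim to test, and 0 of 5 tested ones passed. Cd4 lay above the floor on every array, at 250.7, 260.2 and 147.4 in high-fat livers and 310.6, 257.6 and 238.1 in low-fat livers.

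Of the classical class I heavy chains, the brighter probe sets of H2-K1 and those of H2-D1 showed nearly the same intensity on both diets. The dim H2-K1 c had a lower mean on the high-fat diet, with overlapping diets and an adjusted p of 0.563 in limma. H2-K1 a, the brightest of its 3 probe sets, read 21619, 19999.6 and 20575 in high-fat livers, against 23876, 19031 and 21136 in low-fat livers. The diets overlapped, and the high-fat values lay inside the low-fat range. The log2 difference was -0.04 ± 0.14 (SE), with a 95% interval from -0.36 to 0.29 and an adjusted p of 0.981. H2-K1 b read 3187, 3169 and 3740 in high-fat livers, against 3171, 2855 and 3207 in low-fat livers, a log2 difference of 0.13, with an interval from -0.14 to 0.40. H2-K1 c was dim, at 45.6, 56.6 and 127.5 in high-fat livers, against 190.5, 112.6 and 132.0 in low-fat livers. High-fat arrays 1 and 2 lay under the floor there, high-fat array 3 lay within the low-fat range, and the log2 difference was -0.74 with an interval from -1.50 to 0.01. The floor understated this difference, which was -1.035 in limma with the floor at the 10th percentile (adjusted p = 0.634).

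H2-D1 was read by 3 probe sets with log2 differences of 0.00, -0.01 and 0.00. H2-D1 b read 11665, 12601 and 12085 in high-fat livers, against 13710, 11345 and 11465 in low-fat livers. H2-D1 a read 18735, 17593 and 16963 in high-fat livers, against 21037.5, 16905 and 15997 in low-fat livers. H2-D1 c read 1735, 1628 and 1735 in high-fat livers, against 1601, 1724 and 1770 in low-fat livers. The diets overlapped for all 3, and the widest of the 3 intervals, that of H2-D1 a, ran from -0.35 to 0.33. The probe sets of H2-D1 and the brighter ones of H2-K1 carry a suffix for probes shared within a gene family, and class I genes are near-identical copies, so these values cannot be assigned to 1 heavy chain alone. B2m, the light chain of all class I molecules, read 16563, 13959.7 and 17806 in high-fat livers, against 16553, 18686 and 18881 in low-fat livers. The B2m difference was -0.17 ± 0.15 (SE) on the log2 scale, with an adjusted p of 0.833.

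Peptide transport gave the lowest p-value of the list. Tap1 encodes 1 of the 2 chains of the peptide transporter, and its brighter probe set, Tap1 a, read 792.8, 921.0 and 841.4 in high-fat livers, against 831.9, 498.8 and 527.5 in low-fat livers. Low-fat arrays 2 and 3 lay well below every high-fat array, while low-fat array 1 lay among the high-fat values, so the diets overlapped. The log2 difference was 0.50 ± 0.21 (SE), a ratio of 1.41, with an unadjusted p of 0.0392 and an adjusted p of 0.512. With each array left out in turn, the log2 difference ran from 0.36 without low-fat array 2 (adjusted p = 0.807) to 0.73 without low-fat array 1 (adjusted p = 0.160). The unadjusted limma p was 0.00209 without low-fat array 1 and between 0.0545 and 0.143 without each of the other 5 arrays. Tap1 b had a log2 difference of 0.11 with an interval from -0.47 to 0.69. Tap2, the partner chain, read 244.6, 213.1 and 164.2 in high-fat livers, against 207.3, 241.5 and 147.6 in low-fat livers, a log2 difference of 0.07.

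Tapasin, encoded by Tapbp, was read by 3 probe sets that did not give the same picture. Tapbp b read 639.8, 589.4 and 697.3 in high-fat livers, against 1034, 748.3 and 721.5 in low-fat livers. Every high-fat array lay below every low-fat array, with a log2 difference of -0.36 ± 0.18 (SE) and an adjusted p of 0.605. Tapbp c read 601.2, 530.3 and 548.6 in high-fat livers, against 602.0, 690.5 and 604.9 in low-fat livers. Its diets did not overlap either, by a narrow margin, and its log2 difference was -0.17. The brightest, Tapbp a, overlapped, at 1393, 1214 and 1076 in high-fat livers against 1507, 1181 and 975.8 in low-fat livers, with a log2 difference of 0.02. Probe sets with every high-fat array below every low-fat array were 2 of the 30, both of Tapbp, against 6.76% of all tested probe sets.

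The immunoproteasome subunits, which replace their constitutive counterparts in interferon-treated cells, differed in sign among themselves. Psmb9 read 883.4, 909.6 and 609.3 in high-fat livers, against 876.8, 574.5 and 417.9 in low-fat livers. Psmb8 read 1022, 929.2 and 1088 in high-fat livers, against 999.7, 822.9 and 828.5 in low-fat livers. Psmb10 read 869.5, 843.8 and 671.9 in high-fat livers, against 1260.4, 1063 and 846.2 in low-fat livers. In each of the 3 genes the diets overlapped, and low-fat array 1 was the highest low-fat array. Log2 differences were 0.41 ± 0.27 for Psmb9, 0.20 ± 0.14 for Psmb8 and -0.40 ± 0.18 for Psmb10 (SE), with adjusted p-values of 0.762, 0.774 and 0.563. Leaving out low-fat array 3 gave Psmb9 a difference of 0.15 (adjusted p = 0.916), and leaving out low-fat array 1 gave 0.69 (adjusted p = 0.502). In the neighbours with the shared promoter stretch, low-fat array 1 lay 1.62-fold (Tap1 a) and 1.79-fold (Psmb9) above the mean of the other low-fat arrays on the log2 scale. For Tap1 b this gap was 1.03-fold. Such gaps were not particular to this pair, with 1.77-fold for Irf1 and 2.15-fold for Gbp2. A part of the shared stretch in them was not tested. Of the constitutive counterparts Psmb5, Psmb6 and Psmb7, 0 of 3 passed and 0 of 3 reached an unadjusted p under 0.05, with log2 differences of 0.11, 0.06 and -0.05.

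**Figure D3:**
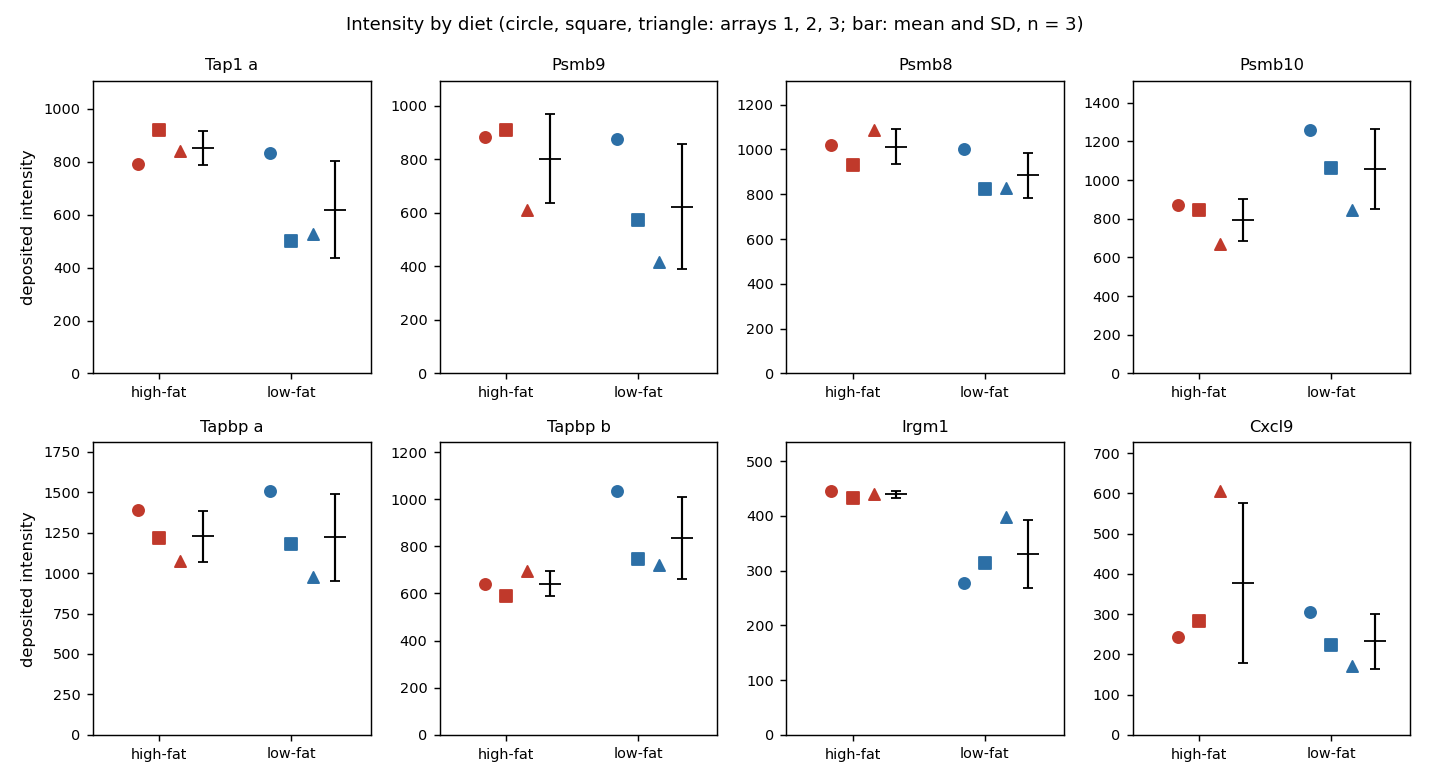
Deposited intensity by diet for 8 probe sets of 7 genes, with arrays 1, 2 and 3 as circle, square and triangle and the mean and SD (n = 3) beside them. Low-fat array 1 (blue circle) lies far above the other low-fat arrays for Tap1 a and Psmb9, the diets do not overlap for Tapbp b and Irgm1, and high-fat array 3 (red triangle) stands alone for Cxcl9.

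The transcription factors Irf1 and Irf7, which carry interferon signals to the genes named here, had log2 differences near 0. Irf1 read 510.3, 626.7 and 455.3 in high-fat livers, against 866.4, 517.9 and 460.3 in low-fat livers, a log2 difference of -0.17 ± 0.25 (SE). Irf7 a, the brighter of its probe sets, read 446.1, 407.2 and 480.6 in high-fat livers, against 568.9, 409.4 and 302.3 in low-fat livers, a log2 difference of 0.10. For Irf1 and Irf7 a low-fat array 1 was the highest of all 6 arrays. For Irf7 b high-fat array 3 was the highest, at 267.5, with 204.7 on low-fat array 1, and the log2 difference was 0.01.

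Of the antiviral effectors, 4 of 6 measured genes could be tested, and most of them other than Isg15 were dim. Isg15, a ubiquitin-like protein that is attached to other proteins after interferon, read 546.0, 642.8 and 565.0 in high-fat livers, against 557.1, 461.4 and 447.7 in low-fat livers. High-fat array 1 lay below low-fat array 1, so the diets overlapped, and the log2 difference was 0.26 ± 0.17 (SE) with an adjusted p of 0.739. Usp18, the protease that removes Isg15, read 99.6, 277.7 and 270.9 in high-fat livers, against 285.2, 154.8 and 157.7 in low-fat livers. Usp18 had the widest spread of log2 values on the high-fat diet among the 30 probe sets, with an SD of 0.84, and a log2 difference of 0.04. Ifit3 read 117.3, 156.0 and 184.1 in high-fat livers, against 157.9, 26.5 and 143.8 in low-fat livers, with low-fat array 2 under the floor. Ifit1 read 64.5, 114.0 and 104.6 in high-fat livers, against 102.3, 21.8 and 33.7 in low-fat livers. Ifit proteins bind viral RNA, and the 2 tested genes had log2 differences of 0.37 ± 0.36 for Ifit3 and 0.25 ± 0.29 for Ifit1 (SE), both understated by the floor. With the floor at the 10th percentile they were 0.83 for Ifit3 and 1.12 for Ifit1, with adjusted p-values of 0.846 and 0.712. Without low-fat array 2 the difference of Ifit3 was -0.01. Ifit2 was under the floor on all 6 arrays, at 23.6, 14.6 and 13.8 in high-fat livers against 13.4, 9.4 and 14.9 in low-fat livers. Mx1, an antiviral GTPase gene, was above the floor on 2 arrays, at 57.2, 15 and 123.8 in high-fat livers against 41.3, 125.8 and 59.5 in low-fat livers.

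Among the interferon-inducible GTPases, which act against intracellular pathogens, Irgm1 was the only 1 of the 30 probe sets whose high-fat arrays all lay above all low-fat arrays, against 7.34% of all tested probe sets. Irgm1 read 445.2, 432.9 and 439.3 in high-fat livers, against 277.6, 313.5 and 398.7 in low-fat livers. The high-fat arrays were close together, with an SD of 6.2 intensity units, and the low-fat arrays were spread. The log2 difference was 0.43 ± 0.20 (SE), a ratio of 1.35 that did not pass the test (adjusted p = 0.587). Igtp read 292.8, 440.4 and 444.4 in high-fat livers, against 646.9, 308.8 and 410.9 in low-fat livers. Gbp2 read 166.1, 138.3 and 146.9 in high-fat livers, against 228.3, 101.9 and 110.8 in low-fat livers. In both genes low-fat array 1 was the highest of all 6 arrays. Gbp3 read 155.3, 280.2 and 388.3 in high-fat livers, against 365.5, 183.6 and 258.3 in low-fat livers, a log2 difference of -0.01 with an interval from -0.87 to 0.84. Iigp1 a, the brighter of its probe sets, read 5924, 5649 and 6669 in high-fat livers, against 8034, 6259 and 7026 in low-fat livers, a log2 difference of -0.22 ± 0.13 (SE), and Iigp1 b had a log2 difference of -0.09.

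The chemokine gene Cxcl9 had the largest positive difference of the list at the floor used here, with a wide error, while Ifit1 and Ifit3 lay above it with the lower floor. Its product attracts activated T cells, and it read 244.3, 283.2 and 605.4 in high-fat livers, against 304.0, 222.2 and 170.1 in low-fat livers. High-fat array 3 stood alone, and the other high-fat arrays lay within the low-fat range. The log2 difference was 0.62 ± 0.37 (SE) with an adjusted p of 0.718, and it was 0.22 without high-fat array 3. Cxcl10, which binds the same receptor, was not tested: it read 43.0, 159.1 and 81.3 in high-fat livers, against 64.0, 40.9 and 60.8 in low-fat livers, with every low-fat value under the floor.

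**Figure D4:**
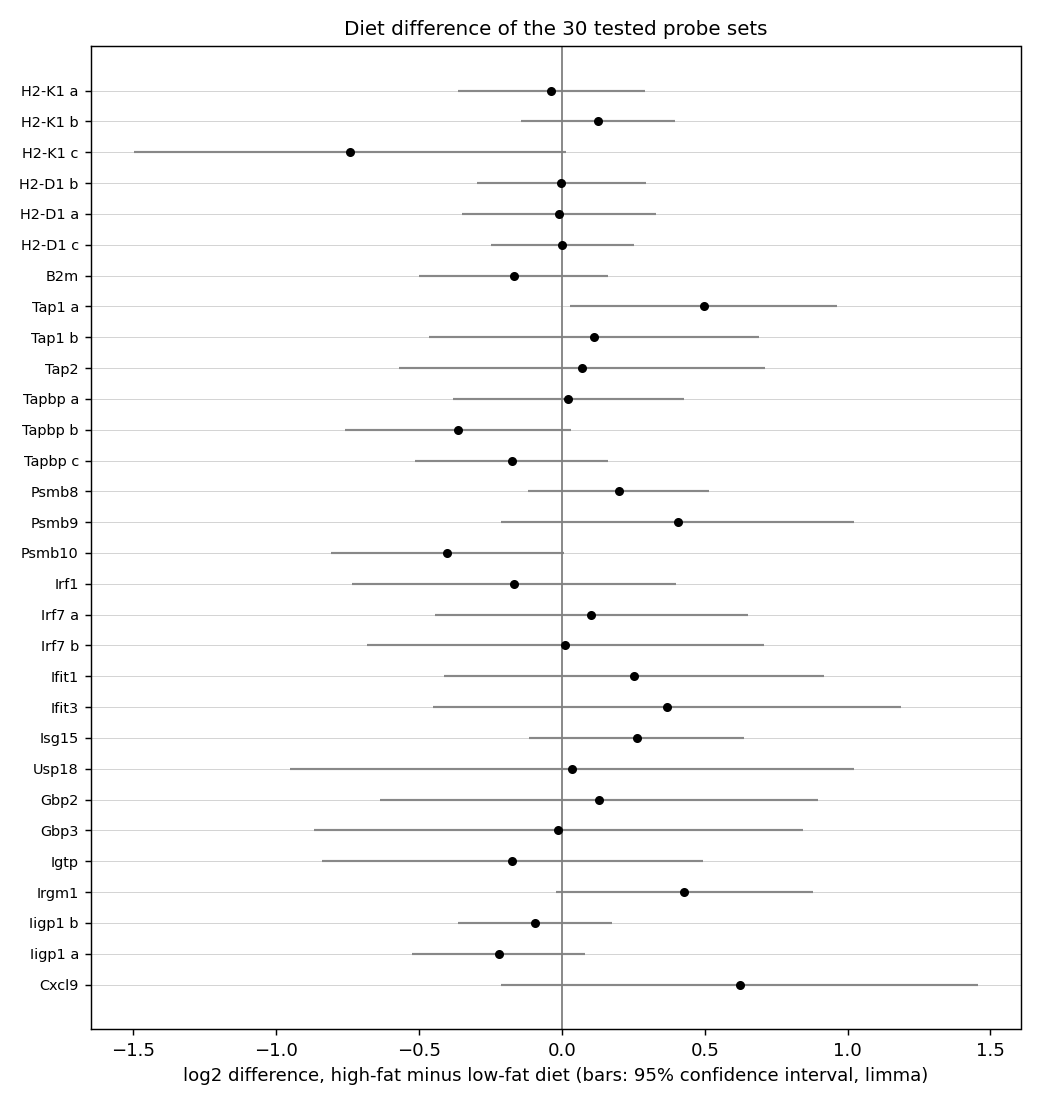
Log2 difference, high-fat minus low-fat diet, of the 30 tested probe sets, with limma's 95% confidence interval as bars. The point estimates run from -0.74 for H2-K1 c to 0.62 for Cxcl9, and only the interval of Tap1 a leaves out 0.

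The spread of these genes between arrays of 1 diet was unequal. Low-fat array 1 was the highest low-fat array for 23 of the 30 probe sets (76.7%), against 34.0% of all tested probe sets. For the interferon-response genes it was the highest in 13 of 14 probe sets, with Irgm1 as the exception, and for the class I presentation genes in 10 of 16. Over the 14 interferon-response probe sets, low-fat array 1 lay a median of 0.66 log2 units above the mean of low-fat arrays 2 and 3, against 0.27 for the 16 class I presentation probe sets and 0.00 for all tested probe sets. The widest such gap was that of Gbp2, 2.15-fold, followed by Usp18 at 1.83-fold and Igtp at 1.82-fold. This pattern was seen in the values first and is given as a description, with no test, and genes that share a regulator are not independent of one another. The other lists of the same pathways did not all share it. Low-fat array 1 was highest in 17 of 37 tested further interferon-induced genes, in 9 of 22 interferon ligands, receptors and signalling genes, in 4 of 13 further class I and peptide-loading genes and in 0 of 3 constitutive proteasome counterparts. It was highest in 8 of 9 tested MHC class II genes, and the tested markers of Kupffer cells and macrophages had it highest in 7 of 11, those of T cells in 2 of 5 and those of hepatocytes in 4 of 7. The part of any cell type in this pattern was not tested. Within a diet, the median SD of log2 values over the 30 probe sets was 0.16 for the high-fat diet and 0.29 for the low-fat diet, against 0.25 for the high-fat diet and 0.24 for the low-fat diet over all tested probe sets.

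**Figure D5:**
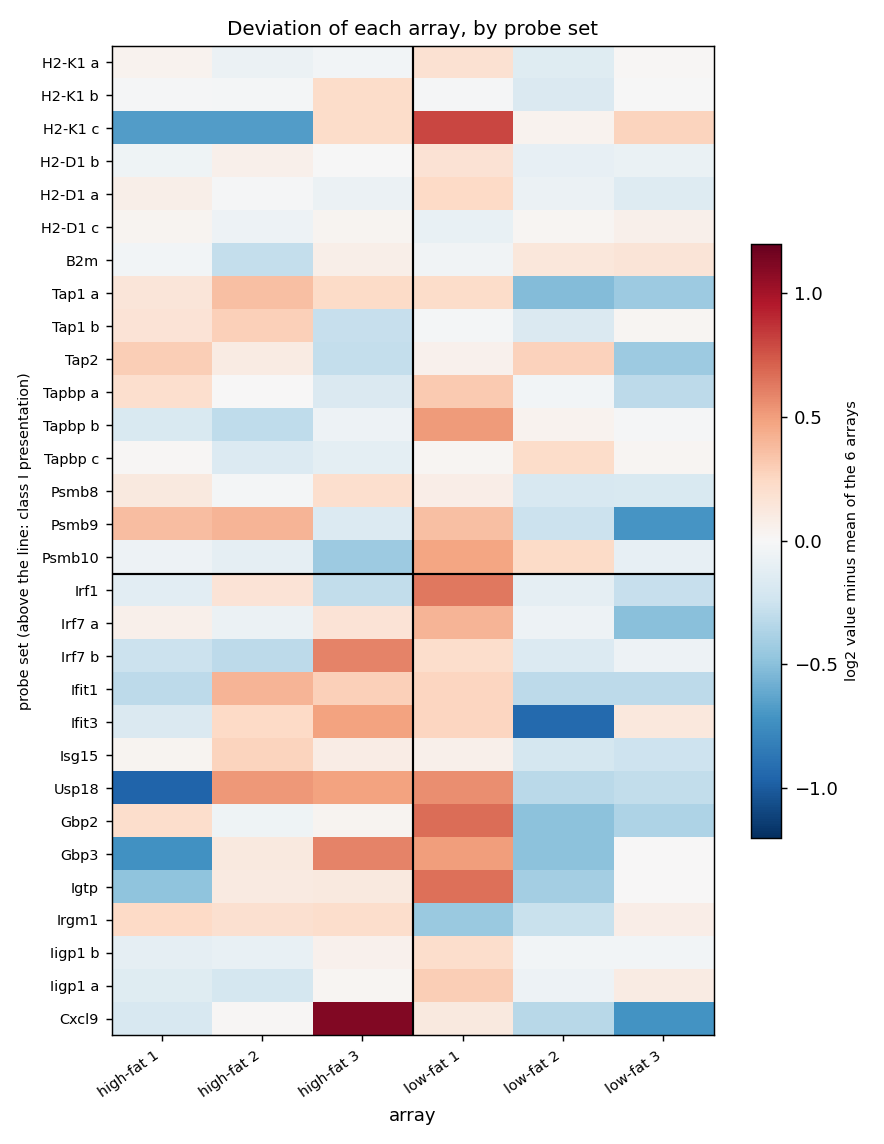
Deviation of each array's log2 value from the mean of the 6 arrays, for the 30 tested probe sets, with high-fat arrays left of the vertical line and class I presentation genes above the horizontal line. The column of low-fat array 1 is red for most interferon-response genes other than Irgm1, and low-fat array 2 is blue or pale for most of the same genes.

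Further genes of the same pathways were read in the same fit. Of 13 tested further class I and peptide-loading genes 0 passed limma's adjusted threshold, against 0.827% of all tested probe sets. The median log2 difference of the 13 was 0.01, and 1 had an unadjusted limma p under 0.05, against 9.07% of all tested probe sets. That gene was Ubd, which encodes a ubiquitin-like modifier, at 109.6, 126.9 and 231.2 in high-fat livers and 27.8, 40.1 and 95.1 in low-fat livers (adjusted p = 0.402). Low-fat arrays 1 and 2 lay under the floor and were set to it, so Ubd met the filter through its high-fat arrays. No conclusion is drawn from its p. Pdia3, a chaperone of class I loading, came next, with a log2 difference of 0.41 and an adjusted p of 0.774. Of 22 tested interferon ligands, receptors and signalling genes 0 passed, with 3 at an unadjusted p under 0.05, against 9.07% of all tested probe sets. The median log2 difference of the 22 was -0.10, and Ifng and Ifnb1 were too dim to test. The lowest p-values there were those of Cish, which encodes an inhibitor of cytokine signalling, and of the type I receptor chain gene Ifnar2. Their log2 differences were 0.73 and -0.59, with adjusted p-values of 0.294 and 0.383. Of 37 tested further interferon-induced genes 1 fell and 0 rose at the adjusted threshold, where 0.827% of all tested probe sets passed. The median log2 difference of the 37 was 0.11, with 19 above 0 and 18 below. An unadjusted limma p under 0.05 was reached by 4 of the 37, against 9.07% of all tested probe sets. The gene that fell was Gch1, the first enzyme of tetrahydrobiopterin synthesis, at 1114, 850.7 and 1072 in high-fat livers and 2172, 1996 and 2415 in low-fat livers, with a log2 difference of -1.12 ± 0.14 (SE) and an adjusted p of 0.0102. The call of Gch1 was lost without low-fat array 1, at an adjusted p of 0.0503. Isg20, an interferon-induced exonuclease, read 127.3, 142.4 and 185.3 in high-fat livers against 36.8, 59.7 and 36.9 in low-fat livers. Every low-fat value was under the floor, so Isg20 entered the test only through its high-fat arrays. Its adjusted p of 0.106 in limma rests on low-fat values all set to the floor, and no conclusion is drawn from it. Besides Gch1 and Isg20, the genes of this list at an unadjusted p under 0.05 were Ifi27 and Lgals3bp. Their log2 differences were 0.50 and 0.46, with adjusted p-values of 0.366 and 0.545 in limma. Of 9 tested MHC class II genes 0 passed and 0 had an unadjusted p under 0.05, and the smallest p-values were those of H2-DMa and H2-Oa, with log2 differences of 0.40 and -0.57.

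Markers of immune cells that could hold these transcripts were set beside them. The 11 tested markers of Kupffer cells and macrophages all had a log2 difference above 0, against 50.5% of all tested probe sets, with a median of 0.40. In limma 0 of the 11 passed the adjusted threshold, against 0.827% of all tested probe sets. An unadjusted p under 0.05 was reached by 4, against 9.07% of all tested probe sets. The summed intensity of the 13 measured genes of this list ran from 10650 to 13469 on the high-fat arrays and from 8022 to 9822 on the low-fat arrays. Marco and Fcer1g were too dim to test, and the smallest p was that of Mpeg1, with a log2 difference of 0.89 and an adjusted p of 0.0742. The summed intensity of 10 measured markers of NK cells and cytotoxic lymphocytes ran from 969 to 1330 in high-fat and from 986 to 1118 in low-fat livers, and that of 11 T cell markers from 679 to 929 in high-fat and from 718 to 860 in low-fat livers. For B cells and plasma cells the sum over 7 genes ran from 1937 to 2426 in high-fat and from 1952 to 2144 in low-fat livers. For dendritic cells it ran over 7 genes from 1882 to 1943 in high-fat and from 1841 to 1899 in low-fat livers, and for endothelium over 8 genes from 3974 to 5014 in high-fat and from 4181 to 4473 in low-fat livers. Such sums follow the brightest genes most and do not show each marker. Of 8 tested NK and cytotoxic lymphocyte markers 7 had a log2 difference above 0 and 1 below, with a median of 0.21. Above 0 were 2 of 5 tested T cell markers and 4 of 7 of B cells and plasma cells. For dendritic cells there were 3 of 6, and for endothelium 3 of 8. Of the endothelial genes, Eng alone read 2543, 2671 and 3222 in high-fat livers and 2836, 2828 and 2513 in low-fat livers. None of the tested markers in these 5 lists passed (0 called), and 0 had an unadjusted p under 0.05. The acute phase list had a median log2 difference of 0.17, with 9 genes above 0 and 6 below. Of its 15 tested genes 0 were called, and 3 had an unadjusted limma p under 0.05, against 9.07% of all tested probe sets. Saa3 had the smallest p of these, with a log2 difference of 1.26 and an adjusted p of 0.18. The part of macrophage RNA in the values of Tap1, Irgm1 and Cxcl9 was not tested.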

How the data were processed

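Liver RNA was hybridised to 6 Affymetrix mouse arrays, 3 per diet. The deposited values are linear intensities, 1 per probe set and array. Neither header nor label names the authors' software or background correction. The values show that each deposited array was scaled as a whole to a mean intensity of 500.4, taken after trimming 2% of probe sets at each end, so a change of most transcripts in 1 direction cannot be seen. Depth does not apply, and the number of arrays limits the precision.

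The platform's gene table gave 1 symbol for 10855 probe sets, several for 396 and none for 1237. The 24 measured genes of the list all had an entry in the RefSeq table of GRCm38.p6, with 0 symbols changed. No probe set coordinates are given, since no build is named for them.

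Values under the pooled 30th percentile (68.9) were set to it and log2 was taken. Non-control probe sets above it on at least 3 of 6 arrays (8950) entered limma 3.58.1 (R 4.3.3; lmFit, then eBayes with a variance trend), two-sided, with Benjamini-Hochberg adjustment over all 8950. Fold changes near the floor are understated. Of several probe sets of a gene outside the list, the one of highest mean was used. The fit was tested on simulated data. Every gene of the list is accounted for. Values on every array were fixed for probe sets with an unadjusted p under 0.05 or diets that do not overlap, for H2-K1, H2-D1 and B2m, and for the brightest probe set of each other gene described. Of further pathway lists, genes past the threshold or else those of smallest p are named. Of the cell type and acute phase lists, counts or sums are given and only some genes are named. Isg20, Ifi27, Lgals3bp, Tat, Cd4, Mpeg1 and Saa3 were named after their values were seen. The genes, lists and tests were chosen with earlier results of these data known.

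Alternatives were, for scaling, quantile normalization and a common median; for the floor, the 10th percentile, the 50th percentile or an added constant; for the filter, none or all 6 arrays above the floor; for the fit, no variance trend, robust estimation, array weights, a replicate block or the array's Gapdh 3' to 5' ratio as a term; and an adjusted p of 0.10, no probe sets with suffixes for shared probes, each array left out in turn and both arrays numbered 3 left out.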

Additional observations from a re-analysis of the deposited data

How the results depend on the processing

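None of the tested probe sets of the list passed the threshold (0) under any of the 21 alternatives in limma, and at most 4 reached an unadjusted p under 0.05. Their smallest adjusted p ran from 0.126, for Psmb10 with the array's Gapdh 3' to 5' ratio in the fit, to 0.735 without high-fat replicate 2. Between 0 and 7 of the tested probe sets changed sign under an alternative, none of them called or with diets that did not overlap. The median log2 difference of the list ran from -0.049 without low-fat replicate 2 to 0.12 without low-fat replicate 1, within the SD of 0.258 between the arrays' medians. For all probe sets, 74 passed. This number was 8 with no filter, 20 without the variance trend, 38 with both arrays numbered 3 left out and 120 at an adjusted p of 0.10. With each array left out in turn it ran from 27 to 76: 28 without high-fat replicate 2, 31 without low-fat replicate 1, 27 without low-fat replicate 2 and 43 without low-fat replicate 3. The cause of these changes was not tested, and the fits with arrays left out also hold fewer arrays. Gch1 lost its call with no filter (adjusted p = 0.137), without the variance trend (0.0728) and without low-fat replicate 1 (0.0503), and kept its direction throughout.

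The labels give both diets the replicate numbers 1 to 3. Deviations from the diet means correlated between same-numbered arrays by 0.07, 0.11 and 0.31 across probe sets. Pairing was accepted only with every such correlation over 0.1, which 1 of the 3 missed, so the numbers were not taken to pair the arrays. That 4 of the 6 arrays correlated best with their own number is a hint of shared numbering from the data, not from the design. With the replicate number as a block, 103 probe sets passed and 0 of the list did. The number of arrays and the intensity over the floor limit what could be seen of the dim genes Ifit1, Ifit2, Mx1 and Cxcl10.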
